A study of Mus musculus with 6 samples.

Results

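The Slc25 genes encode the mitochondrial carriers, and 40 of the 55401 genes in the count table of a mouse liver RNA-seq study are described here. The members were every gene whose symbol is Slc25a followed by a number and whose total over the 6 libraries was at least 20 counts, with Ucp2, Mpc1 and Mpc2 added. Slc25a1, Slc25a10, Slc25a13, Slc25a15, Slc25a17 and Slc25a20 were left out by name. Of the 47 numbered Slc25a genes in the table, 4 had fewer than 20 counts. Slc25a31, an ADP/ATP carrier, had 10 counts, all in the library of OP replicate 2. Slc25a41, Slc25a43 and Slc25a54 had 0 counts in every library, which allows up to 0.0472 to 0.0625 CPM. CPM is a gene's count per 1000000 counts of its library, after TMM scaling of the library's total, and the limit covers counting error only.

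Liver tissue of C57BL/6 mice was compared between 2 groups of 3 libraries each. The HFCF mice had the high fat/cholesterol/fructose diet. The other group was treated with OP, okra polysaccharide. The labels used here do not give the diet of the OP group, the dose, or the age and sex of the mice, and there is no group on a standard diet. They also do not say whether replicates came from separate animals, so the p-values measure the spread of these libraries alone, and that spread may be technical. The series concerns OP in a metabolic fatty liver disease model. All levels are from bulk tissue, in which fewer cells of a type and less RNA per cell cannot be told apart.

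Mitochondrial carriers sit in the inner membrane, which is impermeable to most metabolites, and exchange or import one class of substrate each. Most are built from a repeated motif that forms a small barrel of helices. ADP/ATP and phosphate carriers feed ATP synthase, and other members move pyruvate, amino acids, nucleotides, cofactors and iron. The pyruvate carrier subunits Mpc1 and Mpc2 belong to a different protein family with the same kind of task. In liver these proteins connect the urea cycle, glucose synthesis and fat metabolism in the cytosol with oxidation in the matrix.

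Total counts ranged from 46459980 to 58822973 in HFCF and from 50635853 to 61918541 in OP. Messages of the mitochondrial genome took 22.0%, 18.8% and 14.1% of the counts in HFCF replicates 1, 2 and 3, and 7.48%, 6.08% and 14.4% in OP replicates 1, 2 and 3. The summed level of 13 skeletal muscle genes, a list chosen after the data were seen, was 589 CPM in HFCF replicate 3 and 1573 CPM in OP replicate 2, against 1.87 to 4.27 CPM in the other 4 libraries. Hepatocyte markers summed to 31686 to 52946 CPM in HFCF and 49986 to 75305 CPM in OP, and 1 of 7, Ttr, was called higher and 1, Cps1, lower, with 5 at an unadjusted p under 0.05 and 5 called by DESeq2. Red cell markers summed to 942 to 1768 CPM in HFCF and 192 to 415 CPM in OP, with 4 of 6 tested markers called lower, all hemoglobin genes, and Slc4a1 near 0 in every library. Alas2, the sixth tested marker, went the other way, at 47.9 to 53.8 CPM in HFCF and 59.5 to 70.1 CPM in OP, and did not pass (edgeR adjusted p = 0.178). Macrophage markers summed to 298 to 375 CPM and 178 to 309 CPM, with 0 of 8 called by edgeR, 2 at an unadjusted p under 0.05 and 2 called by DESeq2. Adipocyte markers summed to 6.51 to 26.5 CPM in HFCF and 17.5 to 86.6 CPM in OP, with 0 of 4 tested markers called by edgeR or DESeq2 and 1 at an unadjusted p under 0.05; Adipoq was at 0 in 3 libraries. The part of these differences in the carrier results was not tested, except where a value is given beside a carrier below.

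In OP, 5 of the 40 carriers differed from HFCF in edgeR's quasi-likelihood test, at a p under 0.05 after Benjamini-Hochberg adjustment over 17394 tested genes, of which 6.73% passed. Slc25a22 fell 3.84-fold, Slc25a25 fell 3.83-fold and Slc25a28 fell 2.33-fold. Mpc1 rose 1.76-fold, and Slc25a30 rose by an amount that rests on 1 library. These are a glutamate carrier, a calcium-regulated ATP-Mg/phosphate carrier, an iron carrier, a pyruvate carrier subunit and a member of the uncoupling protein branch. All 40 members passed the filter on low counts. The 2 higher members are 5.00% of the carriers, against 3.26% of all genes tested, and the 3 lower members are 7.5%, against 3.47%. At an unadjusted p under 0.05 there were 14 members. The share of all tested genes under that cut was not counted, here or for other counts at that cut. The median log2 fold change of the carriers was -0.07, against 0.02 for all tested genes, with 19 members above 0 and 21 below. In 5 members all OP libraries were above all HFCF libraries, and in 11 members all were below, where 15.8% and 15.4% of tested genes did so. A further fit had each library's share of mitochondrial messages as a covariate, a share that itself differs with the group. In it all 5 calls were lost, at edgeR adjusted p from 0.0552 for Slc25a30 to 0.129 for Slc25a25. Over all tested genes that fit called 110 higher and 97 lower, against 567 and 603 without the covariate. With the mitochondrially encoded genes left out of the counts all 5 carriers were called.

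**Figure D1:**
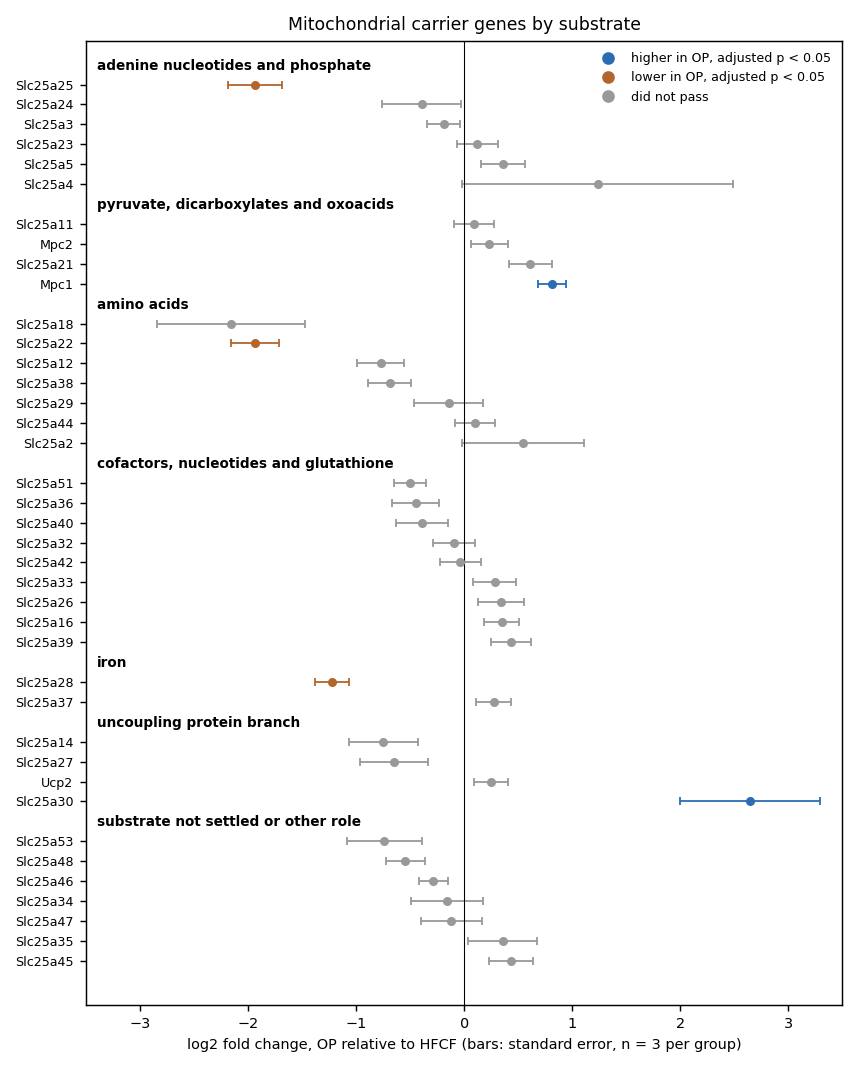
Log2 fold change of 39 of the 40 carriers, OP relative to HFCF, arranged by substrate group; each point is 1 gene, lines give the standard error, and colour marks the genes with an adjusted p under 0.05. The called genes are spread over 5 of the 7 groups, with Slc25a22 and Slc25a25 at -1.94 and Slc25a30 at 2.64.

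The promoter windows of the 5 called carriers are shown because these are the genes that passed the test and because the windows differ in the motifs they hold. They are taken from RefSeq on build GRCm38.p6, where 30 of the 40 carriers had an entry, with 40 windows in all. Bases in annotated exons were removed, and for a gene with several start sites the window with the most kinds of motif is printed. Capitals mark matches, on either strand, to the cyclic AMP response element TGACGTCA, the GC box GGGCGG or the CCAAT box. Coordinates are chr2:32424067-32424316, minus strand, for Slc25a25, chr7:141435398-141435625, minus strand, for Slc25a22, chr19:43674882-43675131, minus strand, for Slc25a28, chr17:8283537-8283761, plus strand, for Mpc1, and chr14:75787038-75787287, minus strand, for Slc25a30.
Slc25a25: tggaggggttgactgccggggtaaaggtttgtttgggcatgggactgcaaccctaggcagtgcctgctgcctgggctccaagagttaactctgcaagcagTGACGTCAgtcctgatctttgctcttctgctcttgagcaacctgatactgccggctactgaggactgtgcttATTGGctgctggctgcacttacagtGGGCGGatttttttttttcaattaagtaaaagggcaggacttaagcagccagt
Slc25a22: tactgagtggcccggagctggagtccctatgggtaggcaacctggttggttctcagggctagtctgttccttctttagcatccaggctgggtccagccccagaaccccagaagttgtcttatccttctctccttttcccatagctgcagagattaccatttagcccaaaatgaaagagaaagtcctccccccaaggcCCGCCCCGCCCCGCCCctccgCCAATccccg
Slc25a28: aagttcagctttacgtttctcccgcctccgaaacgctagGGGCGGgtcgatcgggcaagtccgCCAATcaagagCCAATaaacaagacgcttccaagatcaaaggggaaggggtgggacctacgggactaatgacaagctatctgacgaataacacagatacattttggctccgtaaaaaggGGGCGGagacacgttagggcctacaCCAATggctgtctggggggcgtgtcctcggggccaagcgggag
Mpc1: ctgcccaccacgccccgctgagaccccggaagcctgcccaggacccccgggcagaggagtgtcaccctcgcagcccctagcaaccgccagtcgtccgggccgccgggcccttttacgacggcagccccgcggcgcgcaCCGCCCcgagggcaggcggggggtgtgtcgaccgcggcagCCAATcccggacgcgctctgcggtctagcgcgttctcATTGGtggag
Slc25a30: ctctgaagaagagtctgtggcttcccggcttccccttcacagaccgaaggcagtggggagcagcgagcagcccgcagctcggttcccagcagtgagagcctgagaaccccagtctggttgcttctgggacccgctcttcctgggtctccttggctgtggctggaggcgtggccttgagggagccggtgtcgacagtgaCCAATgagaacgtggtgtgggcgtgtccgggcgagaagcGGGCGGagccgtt

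The printed window of Slc25a25 holds a full cyclic AMP response element that starts 150 bases before the annotated start of that window. The gene has 3 windows, and the others hold 0 such elements. That element was present in 2 of the 40 carrier windows, 1 of Slc25a25 and 1 of Slc25a36, and in 1.55% of all 32851 windows. GC boxes were present in 30 of 40 carrier windows and in 32.7% of all windows, and CCAAT boxes in 20 of 40 and in 33.8%. In the window of Slc25a22 the 3 GC boxes overlap by their end bases. The repeat of AGGTCA bound by PPAR and RXR, with 1 base between its copies, the estrogen-related receptor element TCAAGGTCA and the C/EBP and ATF composite TGATGCAAT were in 0 carrier windows and in 0.0335%, 0.387% and 0.167% of all windows. A match is a string of letters and not a measured site, and the data hold no binding measurement.

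Among the carriers of adenine nucleotides and phosphate, 1 of 6 fell and 0 rose. Slc25a25, which exchanges ATP-Mg for phosphate when calcium binds its cytosolic part and so changes the adenine nucleotide pool of the matrix, was at 583, 401 and 293 CPM in HFCF replicates 1, 2 and 3 and at 123, 112 and 97.2 CPM in OP replicates 1, 2 and 3. All HFCF libraries were above all OP libraries. The means were 425 ± 146 and 111 ± 13.1 CPM (SD, n = 3 each), a log2 fold change of -1.94 ± 0.250 (SE; edgeR adjusted p = 0.0066). HFCF replicate 3 and OP replicate 3, with similar shares of mitochondrial messages (14.1% and 14.4%), stood at 293 and 97.2 CPM. HFCF replicate 3 is also a library high in skeletal muscle genes. Within HFCF the library with the highest share had the highest Slc25a25 level, and within OP it had the lowest. With the share as a covariate the log2 fold change was -1.53 (edgeR adjusted p = 0.129). The part of the share in the Slc25a25 difference was not tested apart from that fit.

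The other members of this group did not pass. Slc25a23, a calcium-regulated relative of Slc25a25, was at 139.6, 134 and 160.2 CPM in HFCF and 198, 149 and 125 CPM in OP, a log2 fold change of 0.12 ± 0.188 (edgeR adjusted p = 0.739). Slc25a24, the third calcium-regulated carrier, was low, at 1.68, 2.85 and 1.87 CPM in HFCF and 1.23, 2.25 and 1.37 CPM in OP (edgeR adjusted p = 0.554). Slc25a3, which imports the phosphate used by ATP synthase, was at 282 to 348 CPM in HFCF and 248 to 306 CPM in OP (log2 fold change -0.19 ± 0.155; edgeR adjusted p = 0.488). Slc25a5, the main ADP/ATP carrier of liver, was at 203, 195 and 286 CPM in HFCF and 313, 329 and 235 CPM in OP (0.36 ± 0.200; edgeR adjusted p = 0.307).

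Slc25a4, the ADP/ATP carrier of heart and skeletal muscle, stood at 4.65, 7.19 and 38.1 CPM in HFCF and 4.12, 109 and 4.62 CPM in OP. It was high in HFCF replicate 3 and OP replicate 2, the libraries with the muscle genes. Its log2 fold change was 1.23 ± 1.25 with all libraries (edgeR adjusted p = 0.591), and -0.45 with those 2 left out. Slc25a5 made up 82.4% of the 2 ADP/ATP carriers per kilobase in OP replicate 2, 92.1% in HFCF replicate 3 and 97.7% to 99.2% in the other 4 libraries.

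**Figure D2:**
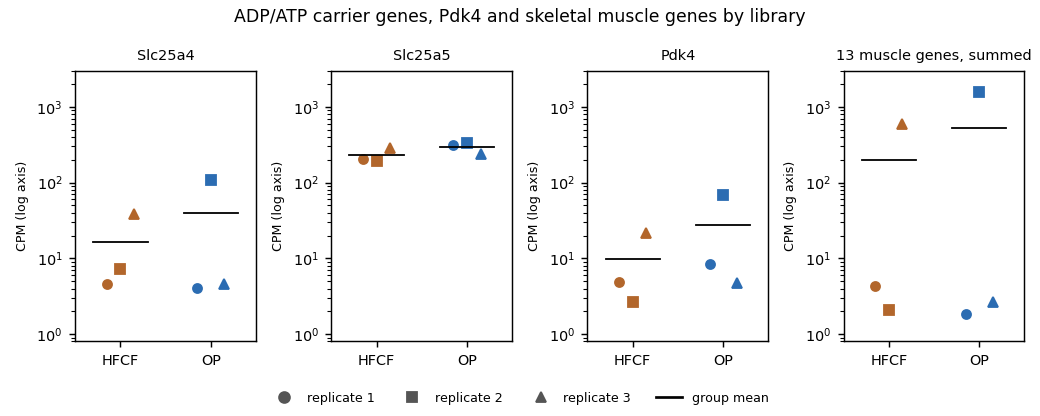
Levels per library of Slc25a4, Slc25a5 and Pdk4 and the summed level of 13 skeletal muscle genes, in CPM on log axes. Slc25a4, Pdk4 and the muscle sum are high in HFCF replicate 3 and OP replicate 2, and Slc25a5 spans 195 to 329 CPM over the 6 libraries.

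Pyruvate and oxoacid carriers had 1 of 4 members higher and 0 lower. Mpc1, which forms the pyruvate carrier together with Mpc2, was at 126, 128 and 132 CPM in HFCF and 248, 219 and 213 CPM in OP. All OP libraries were above all HFCF libraries, and the 3 HFCF libraries differed by little. The means were 129 ± 3.03 and 227 ± 18.9 CPM (SD, n = 3 each), a log2 fold change of 0.81 ± 0.130 (edgeR adjusted p = 0.0132). With both muscle-bearing libraries left out the log2 fold change was 0.84 (edgeR adjusted p = 0.0508), and the adjusted p was 0.0975, 0.115 and 0.0632 when HFCF replicate 1, HFCF replicate 2 and OP replicate 1 were each omitted. Of its exon bases, 480 are shared with the opposite-strand gene 4930506C21Rik, whose own counts were 162 to 324 per library.

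Mpc2, the partner subunit, was at 145, 145 and 197 CPM in HFCF and 172, 217 and 183 CPM in OP (0.23 ± 0.173; edgeR adjusted p = 0.448), and the groups overlapped. Slc25a21, the oxodicarboxylate carrier of lysine and tryptophan breakdown, was at 6.72, 7.09 and 9.13 CPM in HFCF and 12.1, 9.59 and 13.4 CPM in OP (0.61 ± 0.198; edgeR adjusted p = 0.0977). Slc25a11, the oxoglutarate/malate carrier of the malate-aspartate shuttle, had a log2 fold change of 0.09 ± 0.187 and overlapping groups at 47.8 to 57.3 and 42.1 to 67.1 CPM.

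Among the amino acid carriers, 1 of 7 fell and 0 rose, and the group's median log2 fold change was -0.69. Slc25a22, a glutamate carrier that brings glutamate into the matrix with a proton, was at 765, 607 and 459 CPM in HFCF and 186, 157 and 134 CPM in OP. As for Slc25a25, all HFCF libraries were above all OP libraries, and HFCF replicate 1 was the highest. The means were 610 ± 153 and 159 ± 26.4 CPM (SD, n = 3 each), and the log2 fold change of -1.94 ± 0.221 had an edgeR adjusted p of 0.00458. With each library left out in turn, Slc25a22 and Slc25a25 both kept an adjusted p under 0.05.

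The related glutamate carrier Slc25a18 was low, with 16, 36 and 25 counts in HFCF and 8, 7 and 4 counts in OP. Its log2 fold change was -2.16 ± 0.684 (edgeR adjusted p = 0.0934). Slc25a12, the aspartate/glutamate carrier that serves the malate-aspartate shuttle chiefly outside the liver, was at 11.7 to 13.3 CPM in HFCF and 5.18 to 8.95 CPM in OP (-0.77 ± 0.216; edgeR adjusted p = 0.0683). Slc25a38, which imports glycine for heme synthesis, was at 50.9, 38 and 32.1 CPM in HFCF and 22.6, 23.0 and 29.3 CPM in OP (-0.69 ± 0.199; edgeR adjusted p = 0.0738). The groups did not overlap in Slc25a12, Slc25a18 or Slc25a38, and DESeq2 called Slc25a12 and Slc25a38.

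Slc25a44, the branched-chain amino acid carrier, was at 20.1 to 21.5 CPM in HFCF and 16.4 to 25.8 CPM in OP (edgeR adjusted p = 0.784). The basic amino acid carriers were low. Slc25a29 was at 2.2 to 3.61 and 1.83 to 2.72 CPM, and the ornithine carrier Slc25a2 at 0.429 to 0.684 and 0.400 to 1.29 CPM, with overlapping groups in both.

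**Figure D3:**
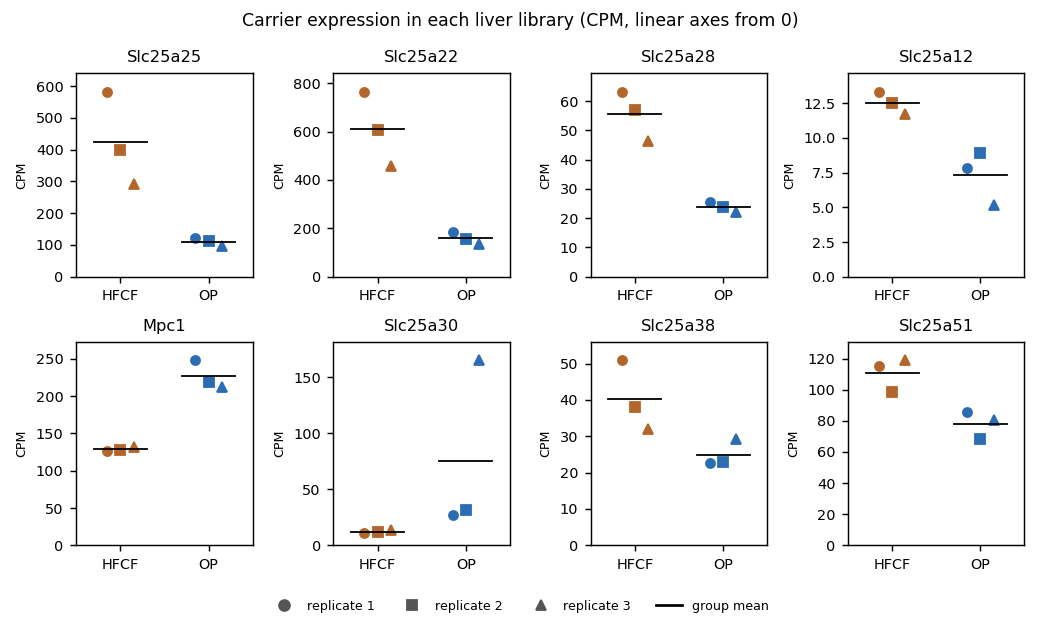
CPM in each of the 6 libraries for the 5 called carriers and for Slc25a12, Slc25a38 and Slc25a51; symbols mark replicates and lines the group means. In Slc25a22, Slc25a25 and Slc25a28 all 3 OP points lie below all 3 HFCF points; in Slc25a30 OP replicate 3, at 165 CPM, stands far above the other libraries.

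In the carriers of cofactors, nucleotides and glutathione, 0 of 10 members passed edgeR's test, 3 had an unadjusted p under 0.05, and DESeq2 called 1, Slc25a51. Slc25a51, which brings NAD into the matrix, was at 115, 98.2 and 119 CPM in HFCF and 85.7, 68.5 and 80.2 CPM in OP (-0.50 ± 0.148; edgeR adjusted p = 0.0778), with no overlap. Slc25a39, a glutathione carrier, was at 234, 219 and 292 CPM in HFCF and 352, 383 and 270.1 CPM in OP (0.43 ± 0.182; edgeR adjusted p = 0.183). Slc25a40, its relative, was at 5.47, 4.57 and 4.0 CPM in HFCF and 3.38, 4.26 and 3.04 CPM in OP.

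The other cofactor carriers named here did not pass either. Slc25a16 and Slc25a42, linked to coenzyme A, had log2 fold changes of 0.35 and -0.04. The pyrimidine nucleotide carrier Slc25a33 was at 17.8, 21.2 and 21.4 CPM in HFCF and 21.9, 31.8 and 19.8 CPM in OP, and its relative Slc25a36 at 10.1, 10.5 and 6.55 CPM and 6.30, 6.82 and 6.70 CPM, with log2 fold changes of 0.28 and -0.45. For the S-adenosylmethionine carrier Slc25a26 the log2 fold change was 0.34, and for the folate and FAD carrier Slc25a32 it was -0.10.

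Of the iron carriers, 1 of 2 fell. Slc25a28, mitoferrin 2, which brings iron into mitochondria in most tissues, was at 63.2, 57.1 and 46.3 CPM in HFCF and 25.4, 23.9 and 22.1 CPM in OP. All HFCF libraries were above all OP libraries, at means of 55.5 ± 8.55 and 23.8 ± 1.66 CPM (SD, n = 3 each). The log2 fold change was -1.22 ± 0.156 (edgeR adjusted p = 0.00657), and the adjusted p was 0.0509 without HFCF replicate 1 and 0.0528 without HFCF replicate 2. Slc25a37, mitoferrin 1, the form of developing red cells, was at 59.8, 65.3 and 64.4 CPM in HFCF and 79.9, 61.5 and 87.2 CPM in OP (0.27 ± 0.160; edgeR adjusted p = 0.335), while 4 of 6 tested red cell markers, the hemoglobin genes, were called lower in OP and Alas2 was not. The part of that difference in either iron carrier was not tested.

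Among the 4 carriers of the uncoupling protein branch, 1 rose and 0 fell. Slc25a30, the kidney mitochondrial carrier protein, was at 10.6, 11.6 and 13.6 CPM in HFCF and 27.5, 31.9 and 165 CPM in OP. All OP libraries were above all HFCF libraries, and OP replicate 3 was far above the others. The log2 fold change was 2.64 ± 0.648 (edgeR adjusted p = 0.0486). Without OP replicate 3 it was 1.31 with an adjusted p of 0.0125, so the size rests on that library. Without HFCF replicate 1, 2 or 3 or OP replicate 1 the adjusted p was 0.204, 0.219, 0.096 and 0.0641, and it was 0.0504 with RLE scaling, 0.0626 with no low-count filter and 0.0855 with both muscle-bearing libraries left out.

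Ucp2, the uncoupling protein found in many tissues and in macrophages, was at 28, 32.0 and 24.0 CPM in HFCF and 29.4, 37.2 and 33.3 CPM in OP (0.25 ± 0.159; edgeR adjusted p = 0.373). Slc25a14 and Slc25a27, forms known chiefly from brain, had log2 fold changes of -0.75 and -0.65 and did not pass.

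For the 7 members with an unsettled substrate or another role, 0 passed edgeR's test, 1 had an unadjusted p under 0.05, Slc25a48, and DESeq2 called 0. Slc25a48 was at 17.4, 16.2 and 17.9 CPM in HFCF and 11.3, 14.5 and 9.43 CPM in OP (-0.55 ± 0.182; edgeR adjusted p = 0.105). Slc25a47, a carrier expressed mainly in liver, was at 589.9, 568 and 552 CPM in HFCF and 659, 623 and 293 CPM in OP, where OP replicate 3 was the lowest library (-0.12 ± 0.278; edgeR adjusted p = 0.835). Slc25a46, an outer membrane protein of mitochondrial dynamics, was at 26.2 to 29.1 and 20.6 to 25.0 CPM, and Slc25a45 at 15.8 to 24.1 and 22.6 to 32.6 CPM. Slc25a34, Slc25a35 and Slc25a53 had log2 fold changes of -0.16, 0.36 and -0.74.

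Per kilobase of transcript, Slc25a47 was the most abundant carrier, at a mean of 315.6 CPM per kilobase over the 6 libraries and between 169 and 380 in single libraries. It was first in both groups, at 329 in HFCF and 303 in OP, and the order below it differed between them. In HFCF, Slc25a22, Slc25a3, Slc25a5, Mpc2, Slc25a39 and Mpc1 followed, at group means of 239, 207, 184, 158, 151 and 140.2 CPM per kilobase. In OP, Mpc1, Slc25a5, Slc25a39, Mpc2, Slc25a3 and Slc25a22 followed, at 246, 236, 204, 186, 181 and 62.2 CPM per kilobase. Among these most abundant carriers, the ranges over all 6 libraries of neighbours in the order of the means overlapped. With union-exon lengths, a setting added after the data were seen, Slc25a47 and Slc25a5 again had the highest means over all 6 libraries. At the other end, Slc25a18 averaged 0.159 CPM per kilobase.

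Relatives with a similar substrate were compared as log2 ratios, in 8 pairs, by an exact two-sided permutation test in which 3 against 3 libraries cannot go below p = 0.1. In 4 pairs the groups did not overlap, with an exact permutation p of 0.1 each and 0.2 after adjustment over the 8 pairs. The share of other gene pairs that do so was not counted. Slc25a25, Slc25a28 and Mpc1 were themselves called and their relatives were not, so these ratios are not results separate from those calls. Slc25a25 relative to Slc25a23 changed by -1.99 on the log2 scale in OP, and its share of the pair per kilobase was 73.9% ± 8.03 in HFCF and 42.3% ± 2.97 in OP (SD, n = 3 each). Slc25a28 relative to Slc25a37 changed by -1.47, with shares of 75.9% ± 3.51 and 53.3% ± 5.30. Slc25a39 relative to Slc25a40 was 0.83 higher, and Mpc1 relative to Mpc2 was 0.57 higher, with Mpc1 shares of 47.2% ± 3.89 and 57.0% ± 4.37. The other 4 pairs, Slc25a5 and Slc25a4, Slc25a24 and Slc25a23, Slc25a22 and Slc25a18, and Slc25a33 and Slc25a36, overlapped, with exact permutation p of 0.9, 0.4, 0.7 and 0.2.

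**Figure D4:**
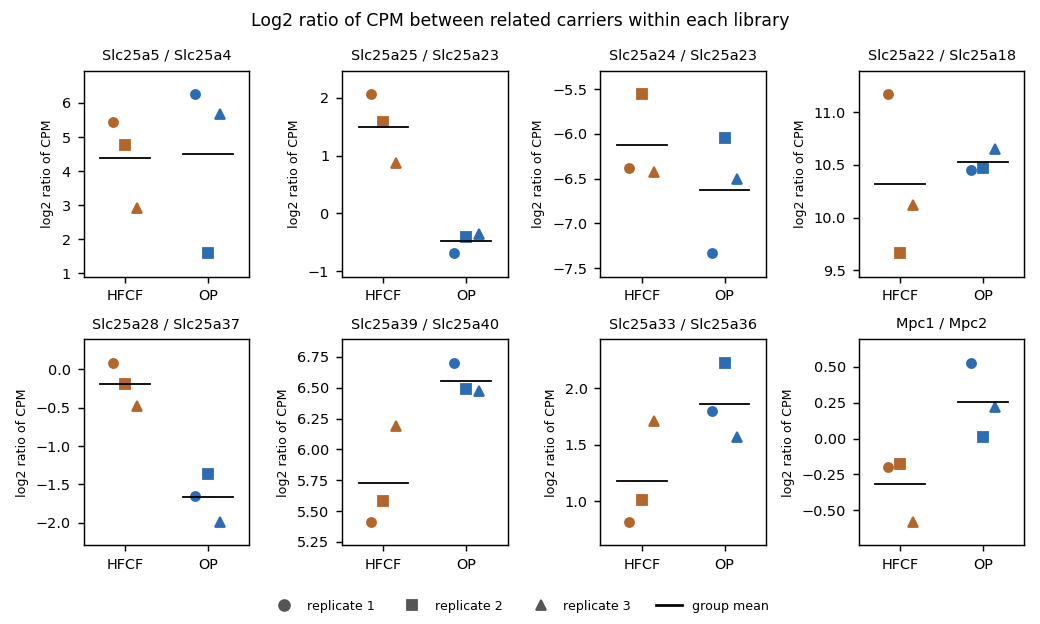
Log2 ratio of related carriers in each library, 1 panel per pair, HFCF against OP. The groups do not overlap in 4 of the 8 pairs, for example Slc25a25 over Slc25a23 and Mpc1 over Mpc2, and they overlap in the others.

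The genes that import the carriers, or that use what they carry, were read from 8 lists of 74 genes in all, which were drawn up with earlier results of these data known. Carrier import and insertion had 2 of 13 higher and 0 lower. Timm8b, a chaperone of the space between the membranes, was at 22.6, 20.5 and 28.7 CPM in HFCF and 37.3, 39.4 and 43.2 CPM in OP (edgeR adjusted p = 0.0351). Timm8a1, its relative, had an edgeR adjusted p of 0.0449. Outer membrane pores had 0 of 5, none with an unadjusted p under 0.05 and 0 by DESeq2. The medians were 0.16 and 0.29, against 0.02 for all tested genes. Of all tested genes, 3.26% were called higher in OP and 3.47% lower. Whether the share called in any of the 8 lists differed from these shares was not tested.

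In pyruvate entry, 1 of 12 rose: Pdha1, a subunit of pyruvate dehydrogenase, at 59.4, 53.8 and 68.4 CPM in HFCF and 90.9, 101 and 88.2 CPM in OP (0.63 ± 0.145; edgeR adjusted p = 0.0409). Pdk4, the kinase that shuts pyruvate dehydrogenase off, was at 4.89, 2.68 and 21.7 CPM and 8.51, 68.4 and 4.79 CPM, high in the same 2 libraries as Slc25a4 (edgeR adjusted p = 0.423). Of the 4 malate-aspartate shuttle enzymes 1 fell: Got1, which moves amino groups between glutamate and aspartate in the cytosol, at 554, 377 and 529 CPM and 90.3, 99.6 and 51.6 CPM (-2.60 ± 0.275; edgeR adjusted p = 0.00361).

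In branched-chain amino acid breakdown 1 of 11 fell, the transaminase Bcat2, at 119.9, 99.2 and 115 CPM and 44.6, 49.0 and 41.7 CPM (-1.30 ± 0.142; edgeR adjusted p = 0.00384). Among 7 mitochondrial folate enzymes Sardh rose and Mtfmt fell, at 0.78 and -0.77. Of 11 genes of iron-sulfur and heme use, Iscu, the scaffold on which iron-sulfur clusters form, rose from 57.7 to 69.3 CPM in HFCF to 96.0 to 111 CPM in OP (0.73 ± 0.139; edgeR adjusted p = 0.0229). Of 11 genes of mitochondrial content and its regulators, Cs and Tfb2m rose and Ppargc1a fell. Ppargc1a, a coactivator of mitochondrial gene programs, was at 23.7, 25.4 and 21.7 CPM in HFCF and 4.62, 4.59 and 5.68 CPM in OP (-2.25 ± 0.161; edgeR adjusted p = 0.00193).

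Got1, Bcat2 and Ppargc1a kept an adjusted p under 0.05 when each library was left out in turn. Timm8b, Timm8a1, Pdha1, Sardh, Mtfmt, Iscu, Cs and Tfb2m each lost it when replicate 1 of either group or HFCF replicate 2 was omitted, and all of these except Iscu also without 1 or more of the other OP replicates. These 8 also lost it with the mitochondrial share as a covariate, and 7 of them (all but Iscu) with no low-count filter. Of the 8, 5 lost it with both muscle-bearing libraries left out, and 4 with total counts without scaling factors. Calls over all tested genes dropped too, from 567 higher and 603 lower in the main fit. They were 52 and 60 without HFCF replicate 1, 34 and 54 without HFCF replicate 2, and 86 and 117 without OP replicate 1. With the covariate they were 110 and 97. The medians of these 6 lists ran from -0.09 in mitochondrial content to 0.44 in the folate enzymes.

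**Figure D5:**
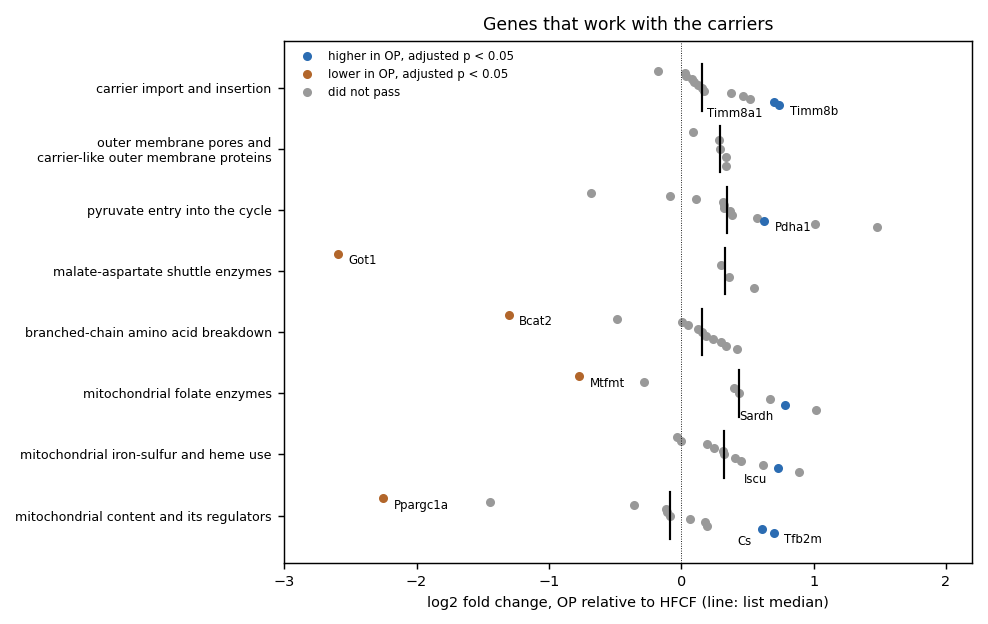
Log2 fold change, OP relative to HFCF, of the genes of the 8 partner lists, with each list's median as a line and called genes named. Among the called genes the 3 largest falls, Got1, Ppargc1a and Bcat2, are at -2.60, -2.25 and -1.30. Ppargc1b, which did not pass, is at -1.45.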

How the data were processed

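Polyadenylated RNA of fresh liver was made into strand-keeping (dUTP) libraries and sequenced in pairs on an Illumina NovaSeq, per the labels' protocols. Cutadapt 1.9, FastQC and build GRCm39 are named in the submitters' processing notes. Not given in the sources used here are the aligner, the counter and whether strand was used. Deposited by the authors was 1 table of raw counts per gene, and the 3 OP libraries were compared with the 3 HFCF libraries. Columns were mapped to samples by name, and 0 columns were left without a sample.

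Genes were filtered with filterByExpr, scaled by TMM and tested with edgeR 4.0.16 (quasi-likelihood test, two-sided, R 4.3.3), p-values being adjusted by Benjamini-Hochberg over the tested genes, with 0.05 as threshold. DESeq2 1.42.0 was an alternative. The script was tested on simulated data, where 86 of 100 simulated 4-fold changes and 30 of 100 simulated 2-fold changes were called. There were 10 false calls among 16611 unchanged genes. A carrier that did not pass may therefore still differ, also by more than 2-fold. Slc25a18, for example, did not pass at a log2 fold change of -2.16. Genes at the lowest levels were not among those changed in the simulation, so it sets no limit for the lowest carriers. Levels per kilobase use the median length of basic protein-coding transcripts in GENCODE M21. A floor of 3 counts was used as the detection limit. Counts of 4 were commoner than counts of 3 or 5, and the cause was not tested. Opposite-strand genes that share exons with a member are uncertain, because the strand setting of the counting is unknown.

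The members and gene lists were chosen with earlier results of these data known. Every member could be named, with values per library for called members, for the most abundant and the smallest-p member of each substrate group, and for related pairs. Genes of the partner lists were named when called, and Pdk4 and Ppargc1b were named outside that rule, since neither was called. The counts cover all 40 members, of which 1 is not reported singly here.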

Additional observations from a re-analysis of the deposited data

How the results depend on the processing

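The count of carriers called higher, 2, was 1 with RLE scaling, 1 with no low-count filter, 1 with the mitochondrial mRNA share as covariate (a carrier not called otherwise, since both of the 2 lost their call), 0 with HFCF replicate 3 and OP replicate 2 both left out, and 0 to 2 with 1 library left out. The count called lower, 3, was 6 with DESeq2, which added Slc25a12, Slc25a38 and Slc25a51. Over all tested genes DESeq2 called 1252 higher and 1262 lower, against 567 and 603 with edgeR. Lower carriers numbered 4 with counts divided by 4, which added Slc25a12, and 2 to 3 with 1 library left out. With 1 library left out, edgeR's counts over all genes ran from 34 to 655 higher and from 54 to 655 lower. Lower carriers numbered 0 with the covariate, which is itself tied to the groups. With that covariate log2 fold changes turned to -0.19 for Slc25a5, -3.0 for Slc25a4, -0.26 for Slc25a23, -0.25 for Slc25a44, -0.0403 for Slc25a39, -0.0874 for Slc25a26, -0.19 for Slc25a33, -0.078 for Mpc2 and -0.41 for Slc25a11. With both libraries left out they turned to -0.45 for Slc25a4 and -0.00833 for Slc25a11. With 1 library left out the range was -1.93 to 2.73 for Slc25a4, -0.0803 to 0.26 for Slc25a23, -0.0446 to 0.86 for Slc25a2, -0.0245 to 0.28 for Slc25a44, -0.30 to 0.13 for Slc25a29, -0.27 to 0.0323 for Slc25a32, -0.21 to 0.14 for Slc25a42, -0.0765 to 0.25 for Slc25a11, -0.36 to 0.14 for Slc25a34 and -0.31 to 0.17 for Slc25a47. The causes were not tested. HFCF replicate 3 and OP replicate 2 were left out together, and union-exon lengths tried, after the data were seen.

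Same-numbered samples of the groups correlated at 0.02, -0.17 and -0.26 in their deviations from the group means, so the replicate numbers were not taken as pairs. With the replicate block, 0 carriers were called higher and 3 lower, and 87 genes higher and 93 lower over all genes, against 567 and 603 without it.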

Other observations

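Exons of 15 of the 40 carriers overlap exons of another annotated gene. Besides Mpc1, the called carrier concerned was Slc25a25, which shares 379 exon bases with Naif1 on the opposite strand. Naif1 had 71 to 156 counts per library in HFCF and 116 to 208 in OP, far below Slc25a25. Slc25a35, a low carrier with 64 to 87 counts in HFCF and 95 to 119 in OP, shares 1151 exon bases with Rangrf on the opposite strand, which had 7 to 91 counts.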
